A study of Homo sapiens with 72 samples.

Results

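Vaginal epithelial VK2/E6E7 cells (VK2) that had been pretreated with spermine (SPM) were compared with and without live Gardnerella vaginalis (GV): 3 libraries of SPM+GV against 3 libraries of SPM+noGV, 6 of the 72 libraries of the series. Libraries were assigned to the groups by their labels alone (vaginal cells, SPM, GV or noGV). The comparison and the gene lists were chosen with earlier results of these data known. SPM+GV cells received 400 µM spermine 4 h before 10000000 CFU per well of live bacteria and were collected 24 h after the bacteria were added. SPM+noGV cells received the same spermine and no bacteria. Non-treated cells with the bacterium (NT+GV) and without it (NT+noGV) received no polyamine. Spermidine (SPD) was given at 400 µM and putrescine at 4 mM on the same schedule as spermine. The ectocervical and endocervical cells compared below were treated in the same way. All groups were grown in antibiotic-free keratinocyte serum-free medium in 24-well plates, and each had 3 libraries. VK2 is 1 cell line, immortalized with the E6 and E7 genes of a papillomavirus, which act on p53 and RB, so that it stands for 1 donor and carries no stroma or immune cells. Nothing states that the 3 libraries of a group came from separate cultures, so p-values measure only the spread between these samples, which may be technical.

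G. vaginalis is an anaerobe that is abundant in bacterial vaginosis, a state in which lactobacilli no longer dominate the vagina. Epithelial cells sense bacterial products through Toll-like and other receptors, and the NF-kB and MAP kinase pathways behind them turn on chemokines, cytokines, proteases and antimicrobial proteins. Spermine is a polycation that binds nucleic acids, and cells keep its level in check by acetylation, oxidation and export. It carries an aminopropyl group more than spermidine. The comparison asks what the bacterium does to the transcripts of cells that were given spermine beforehand. The level of spermine in the cells is not among the values used here.

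The 6 libraries held 26810845, 24948848 and 20152143 counts in SPM+GV, against 33291033, 28452170 and 34343971 counts in SPM+noGV. TMM factors were 1.016, 1.004 and 1.019 in SPM+GV and 0.9634, 0.9627 and 0.9656 in SPM+noGV, and mitochondrially encoded genes took 4.06, 4.12 and 4.03% of counts in SPM+GV and 4.61, 4.50 and 4.45% in SPM+noGV. Defining epithelial markers (KRT5, KRT14, CDH1, TP63 and 6 others) were all measured and summed to 24260 to 24780 CPM (counts scaled to a TMM-adjusted library of 1000000) in SPM+GV and 29720 to 30260 CPM in SPM+noGV, with 2 members that rose and 8 that fell. Leukocyte markers summed to 81.3 to 84.4 CPM in SPM+GV and 65.5 to 67.5 CPM in SPM+noGV, nearly all of it CD68, a lysosomal protein that epithelial cells also make, and CSF1R, while CD3E and FCGR3A were at 0 in all 6 libraries. Fibroblast markers summed to 65.6 to 68.4 CPM in SPM+GV and 49.9 to 52.4 CPM in SPM+noGV, and 6 of those 10 genes stayed under 0.5 CPM in every library. Endothelial markers summed to 7.61 to 9.11 CPM in SPM+GV and 5.97 to 6.68 CPM in SPM+noGV. The part of these shifts in the results was not tested, and in bulk RNA fewer cells of a type and less RNA per cell cannot be told apart.

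In spermine-treated VK2 cells most tested genes of the chemokine, cytokine, matrix protease, immediate early and histone lists were higher with the bacterium, CXCL8 by 4.30 and FOS by 3.23 on the log2 scale. Most genes of the amino acid response and of sterol synthesis were lower, and more epithelial adhesion genes were lower than higher. Of 18474 genes tested with edgeR, 1692 (9.16%) were higher and 234 (1.27%) were lower in SPM+GV than in SPM+noGV at an adjusted p under 0.05 and at least a 2-fold change, which is what "called" means below. At an adjusted p under 0.05 alone, the measure used for gene lists, 5093 (27.6%) rose and 5290 (28.6%) fell. Among the 14002 genes with a mean of at least 1 CPM, 757 (5.41%) were called higher and 105 (0.75%) lower. Genes called higher took 3.71 to 4.41% of all counts in SPM+GV libraries, against 1.18 to 1.21% in SPM+noGV libraries. They were rarer transcripts than most: 935 of the 1692 (55.3%) averaged under 1 CPM, against 24.2% of all genes tested, and 516 (30.5%) were lncRNAs, against 16.9% of all. Genes called lower were alike in this, with 129 (55.1%) under 1 CPM and 74 (31.6%) lncRNAs, and took 0.189 to 0.207% of counts in SPM+GV and 0.444 to 0.456% in SPM+noGV. Without spermine, NT+GV against NT+noGV gave 322 genes called higher (1.74%) and 91 lower (0.493%) in the same model.

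**Figure D1:**
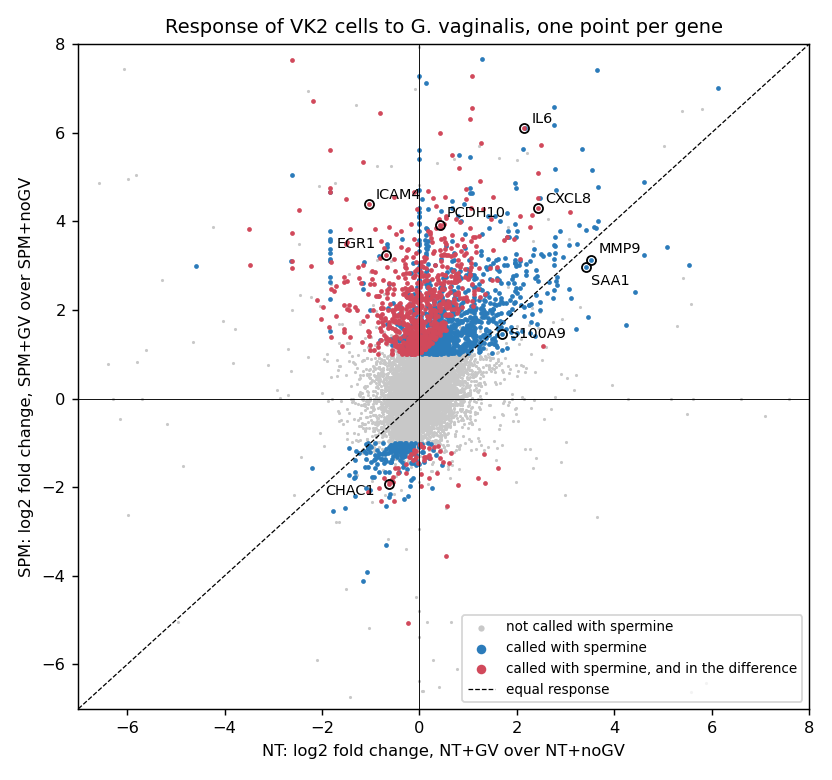
Each point is 1 of the genes tested in VK2 cells, with its log2 fold change of SPM+GV over SPM+noGV on the vertical axis and of NT+GV over NT+noGV on the horizontal axis, and the dashed line marks equal responses. Red points, called with spermine and in the difference between responses, lie mostly above the line, as IL6 and EGR1 do, while MMP9 and SAA1 lie near it, and 24 genes fall outside the axes, and a gene at 0 in a group has a position that the fit sets.

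Of the 10 protein-coding genes with the largest rises among those with at least 2 CPM, the most changed with counts in both groups was IL6, the cytokine that drives the acute-phase response (ENSG00000136244.12, chromosome 7 from 22725884 to 22732002, GRCh38). It stood at 42.9, 58.2 and 61.9 CPM in SPM+GV, against 0.53, 1.13 and 0.724 CPM in SPM+noGV. No library of one group reached the other (log2FC 6.11, SE 0.20, adjusted p = 2.3e-16, where log2FC is the log2 fold change of SPM+GV over SPM+noGV and SE its standard error). Groups that did not overlap were common: every SPM+GV library was above every SPM+noGV library for 30.5% of all genes tested and below for 31.4%. CYP1A1, a monooxygenase turned on by the aryl hydrocarbon receptor, stood at 69.7, 101 and 83.2 CPM in SPM+GV and 1.84, 1.53 and 1.45 CPM in SPM+noGV (log2FC 5.71, SE 0.13, adjusted p = 5.1e-21). MMP13, collagenase 3, had 4.19, 4.43 and 5.02 CPM in SPM+GV and 0.0936, 0.11 and 0.181 CPM in SPM+noGV (log2FC 5.09, SE 0.28, adjusted p = 2.5e-16). The groups stood apart for both. IL32, a cytokine of epithelial and lymphoid cells, had 17.4, 21.1 and 20.7 CPM in SPM+GV and 0.53, 0.767 and 0.694 CPM in SPM+noGV (log2FC 4.89, SE 0.15, adjusted p = 9.4e-23). PTX3, a soluble pattern-recognition protein that marks microbes for uptake, had 25.4, 27.2 and 27.5 CPM in SPM+GV and 1.09, 1.28 and 1.06 CPM in SPM+noGV (log2FC 4.55, SE 0.13, adjusted p = 5.7e-24). The rest of the leading genes, with their log2FC, were CCL20 (4.53), the cornified-envelope gene C1orf68 (4.53), the mechanically induced nuclear protein ANKRD1 (4.49) and the adhesion molecule ICAM4 (4.39), each with groups that did not overlap. TMEM265 completed the list with 104, 71 and 133 counts in SPM+GV and 0 in each SPM+noGV library, which is at least 131-fold higher with a floor of 3 counts over the group (adjusted p = 0.012).

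The 10 largest falls among such genes were smaller than the 10 largest rises, with log2FC between -2.32 and -1.39. INPP5D, the inositol phosphatase SHIP1, had 3.45, 2.72 and 2.97 CPM in SPM+GV, against 13.7, 15.6 and 16.5 CPM in SPM+noGV (log2FC -2.32, SE 0.12, adjusted p = 1.7e-16). ADM2, a peptide hormone of the calcitonin family, had 1.54, 1.36 and 1.36 CPM in SPM+GV and 5.96, 5.92 and 6.58 CPM in SPM+noGV (log2FC -2.11, SE 0.23, adjusted p = 1.1e-07). CHAC1, an ATF4 target that degrades glutathione, had 8.19, 7.75 and 8.09 CPM in SPM+GV and 30.9, 28.2 and 31.9 CPM in SPM+noGV (log2FC -1.92, SE 0.13, adjusted p = 2.5e-10). The groups were apart for all 3 genes, as they were in this direction for 31.4% of all genes tested. SULF2, a sulfatase that trims heparan sulfate and the most abundant of the 10, had 175, 157 and 145 CPM in SPM+GV and 436, 419 and 432 CPM in SPM+noGV (log2FC -1.43, SE 0.05, adjusted p = 2.8e-22). The rest were FRMD5 (-1.80), the G-protein regulator RGS17 (-1.68), the synaptotagmin SYT14 (-1.67), the interferon-induced IFIT2 (-1.56), the nuclear factor TOX2 (-1.42) and KRCC1 (-1.39).

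Most tested chemokine genes rose, among them those of the CXC family that recruit neutrophils and CCL20, which recruits CCR6-bearing cells. Of 16 chemokine genes of several families 14 passed the filter on low counts, and 11 rose and 2 fell (CCL22 and CCL28), with a median log2 fold change of 2.25, against 0.00 over all genes tested. CXCL8, the main human neutrophil chemoattractant, had 284, 358 and 347 CPM in SPM+GV and 16.8, 15.3 and 17.8 CPM in SPM+noGV (log2FC 4.30, SE 0.11, adjusted p = 1.7e-16). CXCL2 had 196, 249 and 235 CPM in SPM+GV and 12.8, 13.2 and 12.8 CPM in SPM+noGV (log2FC 4.13, SE 0.09, adjusted p = 7.3e-20). CXCL1 (4.22) and CXCL3 (3.61) are close relatives of CXCL2, so reads may be shared between the 3 genes. CCL20 had 57.5, 67.6 and 66.2 CPM in SPM+GV and 3.06, 2.48 and 2.71 CPM in SPM+noGV (log2FC 4.53, SE 0.10, adjusted p = 1.9e-26). For each of these 5 genes every SPM+GV library stood above every SPM+noGV library, as for 30.5% of all genes tested. Spermine alone had already raised several of them: against NT+noGV, SPM+noGV cells had log2FC of 2.24 for CXCL8 and 2.20 for CCL20 (adjusted p = 7.3e-09 and 4.2e-11).

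Of 14 promoters read, 9 held a match to a motif searched and 5 (ATF3, JUN, ID2, NR4A3 and CHAC1) held none in the 250 bases before the start. Those of 5 of the genes that rose are shown because motifs of NF-kB, AP-1 and serum response factor lie close to their starts, as the 250 bases before each start site in RefSeq (GRCh38.p14). Capitals mark matches to an NF-kB site in IL6, CXCL2 and CCL20 and to TGANTCA (the AP-1 site) in CXCL8. They also mark TATAAA in CXCL8 and CCL20, and the CArG box bound by serum response factor in EGR1. The NF-kB site was searched as GGGRNWYYCC in the standard code for mixed bases. Sites that depart from this pattern are unmarked here and uncounted below, so CXCL8 is not shown to lack an NF-kB site. The windows are chr4:73740319-73740568 on the plus strand (CXCL8), chr7:22726950-22727199 plus (IL6), chr4:74099196-74099445 minus (CXCL2), chr2:227813592-227813841 plus (CCL20) and chr5:138465229-138465478 plus (EGR1).
CXCL8: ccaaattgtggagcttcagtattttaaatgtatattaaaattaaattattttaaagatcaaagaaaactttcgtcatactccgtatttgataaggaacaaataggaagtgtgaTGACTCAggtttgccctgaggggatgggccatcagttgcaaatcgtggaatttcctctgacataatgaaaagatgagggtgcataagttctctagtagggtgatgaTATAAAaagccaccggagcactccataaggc
IL6: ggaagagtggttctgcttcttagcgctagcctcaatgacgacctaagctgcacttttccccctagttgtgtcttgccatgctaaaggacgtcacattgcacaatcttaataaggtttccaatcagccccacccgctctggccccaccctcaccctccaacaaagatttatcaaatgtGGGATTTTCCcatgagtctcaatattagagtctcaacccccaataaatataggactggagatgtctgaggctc
CXCL2: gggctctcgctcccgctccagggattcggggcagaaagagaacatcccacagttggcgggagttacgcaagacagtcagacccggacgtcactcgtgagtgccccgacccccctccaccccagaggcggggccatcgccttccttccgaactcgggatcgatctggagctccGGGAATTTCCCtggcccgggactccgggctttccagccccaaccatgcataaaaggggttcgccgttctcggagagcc
CCL20: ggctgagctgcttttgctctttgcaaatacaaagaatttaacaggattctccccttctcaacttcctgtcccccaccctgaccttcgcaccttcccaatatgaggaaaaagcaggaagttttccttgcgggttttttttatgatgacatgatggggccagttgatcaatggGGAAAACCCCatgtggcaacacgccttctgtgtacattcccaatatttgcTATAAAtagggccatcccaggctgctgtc
EGR1: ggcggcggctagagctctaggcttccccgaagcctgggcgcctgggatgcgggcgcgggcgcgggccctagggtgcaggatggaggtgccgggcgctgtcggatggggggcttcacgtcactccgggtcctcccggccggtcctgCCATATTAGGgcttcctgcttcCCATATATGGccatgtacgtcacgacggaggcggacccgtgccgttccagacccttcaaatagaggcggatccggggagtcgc

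Both strands of the 300-base window from 250 before to 50 after the start were searched, and 12447 of the 18474 tested genes and 880 of the 1692 genes called higher matched a RefSeq promoter. An NF-kB site was found in 8.86% of promoters of genes called higher, in 8.21% of the 134 matched genes called lower, in 6.64% of all tested and in 5.72% of all promoters. Among the 133 matched genes called higher both with and without spermine the share was 20.3%, and among the 449 called higher with spermine and in the difference between responses it was 8.46%. TGANTCA was found in 9.77% of promoters of genes called higher, 8.21% of those called lower and 5.26% of all tested, and TATAAA in 21%, 12.7% and 6.51% in the same order. The cyclic AMP response element TGACGTCA was in 3.75% of those called higher, 1.49% of those called lower, 3.11% of all tested and 1.98% of all promoters. The CArG box was in 1.48%, 0.746%, 1.00% and 1.29%. A CArG box can contain TATAAA. These shares describe letters in a window, not binding.

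In the list of inflammatory cytokines and growth factors, 22 of 29 tested genes rose and 4 fell, with a median of 2.02. IL1A, an alarmin stored in keratinocytes, had 611, 705 and 656 CPM in SPM+GV and 159.9, 162 and 164 CPM in SPM+noGV (log2FC 2.02, SE 0.04, adjusted p = 1.5e-26). CSF2, which encodes GM-CSF, had 23.9, 29.1 and 23.8 CPM in SPM+GV and 1.81, 1.498 and 1.901 CPM in SPM+noGV (log2FC 3.87, SE 0.11, adjusted p = 4.5e-24). Both genes had groups well apart. IL1B (1.54) and IL24 (3.16), a cytokine of the IL-10 family, and IL36G (4.02), an epithelial IL-1 family member, also rose. GDF15, chosen after its values were seen, was a member that fell, with 2.35, 2.84 and 2.58 CPM in SPM+GV and 4.99, 5.41 and 5.61 CPM in SPM+noGV (log2FC -1.04, SE 0.24, adjusted p = 0.0011).

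Feedback inhibitors of NF-kB rose as well. Of 20 subunits and inhibitors, 18 rose and 1 fell, with a median of 1.46. NFKBIA, the inhibitor that returns NF-kB to the cytoplasm, had 316, 366 and 352 CPM in SPM+GV and 74.7, 67.6 and 73.3 CPM in SPM+noGV (log2FC 2.26, SE 0.06, adjusted p = 2e-21). ZC3H12A, an RNase that degrades cytokine transcripts, had 181, 235 and 188 CPM in SPM+GV and 34, 36.7 and 38.04 CPM in SPM+noGV (log2FC 2.48, SE 0.08, adjusted p = 3.4e-15). Neither gene overlapped between groups, and the co-regulator NFKBIZ (2.80), the subunit NFKB2 (1.46) and the deubiquitinase CYLD (1.45) rose too. TNFAIP3, the ubiquitin-editing inhibitor A20 (chosen after its values were seen), had 837, 1032 and 901 CPM in SPM+GV and 132, 147 and 146 CPM in SPM+noGV (log2FC 2.70, SE 0.10, adjusted p = 1.6e-13). The receptor side moved less. Of 20 Toll-like receptor signaling genes 11 rose and 2 fell with a median of 0.33: the kinase MAP3K8 (2.66) and the adaptor kinase IRAK2 (1.19) rose, the adaptor MYD88 rose by 0.59, and IRAK1 fell to 236, 230.3 and 218 CPM in SPM+GV, against 303, 311 and 319 CPM in SPM+noGV (log2FC -0.45, SE 0.04, adjusted p = 1.2e-11).

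Antimicrobial and acute-phase genes rose in 16 of 20 tested cases and fell in 2, with a median of 1.41. That median was the same with PGLYRP2, which was at 0 in all SPM+noGV libraries, set to its lower bound. S100A9, a subunit of calprotectin, had 139, 136 and 120.4 CPM in SPM+GV and 46.9, 48.3 and 48.7 CPM in SPM+noGV (log2FC 1.46, SE 0.06, adjusted p = 2.7e-19). Complement genes followed: C3 had 31.8, 33.8 and 29.98 CPM in SPM+GV and 7.55, 9.31 and 7.09 CPM in SPM+noGV (log2FC 2.01, SE 0.08, adjusted p = 3.5e-20), and factor B (CFB) rose by 3.80. SAA1, an acute-phase apolipoprotein with a close paralog that may share its reads, rose by 2.96. Groups were apart for these 4 genes, as for 30.5% of all tested in this direction.

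Matrix proteases and their inhibitors rose in 10 of 15 tested cases and fell in 2 (median 1.25): 9 of the 12 proteases rose and 2 fell, and of the 3 TIMP inhibitors TIMP1 rose (0.43). MMP9, gelatinase B, had 180.5, 199 and 194 CPM in SPM+GV and 21.1, 23.96 and 20.7 CPM in SPM+noGV (log2FC 3.13, SE 0.08, adjusted p = 7.8e-18). ADAMTS1, a secreted protease of proteoglycans, had 469, 675 and 559 CPM in SPM+GV and 47.3, 46.4 and 50.2 CPM in SPM+noGV (log2FC 3.56, SE 0.10, adjusted p = 4.1e-15), and MMP1, collagenase 1, rose by 1.25. In the plasminogen activator system 4 of 6 genes rose and 1 fell. SERPINB2, the plasminogen activator inhibitor of keratinocytes, led with 718, 825 and 787 CPM in SPM+GV and 176, 180.4 and 184 CPM in SPM+noGV (log2FC 2.11, SE 0.06, adjusted p = 1.1e-17), and the activator PLAU rose by 0.64 and its receptor PLAUR by 0.61. PTGS2 (COX-2), the inducible enzyme of prostaglandin synthesis, had 701, 761 and 764 CPM in SPM+GV and 196, 189 and 205 CPM in SPM+noGV (log2FC 1.91, SE 0.07, adjusted p = 2.8e-14). Its list was otherwise mixed, with 4 of 10 that rose and 4 that fell, but the prostaglandin E2 receptor PTGER4 rose by 2.45.

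Immediate early genes, which MAP kinases turn on within minutes in other settings, stood high 24 h after the bacteria were added. All but 1 of 19 genes of the EGR and NR4A list rose, with a median of 2.62, and 11 of 12 tested AP-1 genes rose and none fell, with a median of 1.28. FOS had 284, 389 and 337 CPM in SPM+GV and 34.9, 34.8 and 37.7 CPM in SPM+noGV (log2FC 3.23, SE 0.09, adjusted p = 2.7e-16). JUN, its dimer partner, had 934, 1238 and 1067 CPM in SPM+GV and 157, 151 and 163 CPM in SPM+noGV (log2FC 2.78, SE 0.08, adjusted p = 2.1e-16). In both genes the SPM+GV libraries were several times the SPM+noGV libraries, and replicate 1 was the lowest of the SPM+GV libraries. FOSB rose by 2.67 and FOSL2 by 0.73. EGR1, the zinc-finger factor whose promoter is shown above, had 609, 846 and 739.9 CPM in SPM+GV and 78.95, 72.2 and 81.5 CPM in SPM+noGV (log2FC 3.24, SE 0.10, adjusted p = 6.8e-15). ATF3, a stress-induced AP-1 family repressor, had 270.3, 354 and 318 CPM in SPM+GV and 30.04, 26.6 and 33.5 CPM in SPM+noGV (log2FC 3.38, SE 0.11, adjusted p = 9.4e-15). EGR1, ATF3 and the orphan nuclear receptors NR4A1 (2.79), NR4A2 (3.11) and NR4A3 (4.05) were chosen after their values were seen. The matricellular proteins CCN1 (2.62) and CCN2 (2.93), the survival factor IER3 (2.36) and the cytoskeletal protein ARC (2.70) rose too, and MYC was the 1 member that fell (-0.23).

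**Figure D2:**
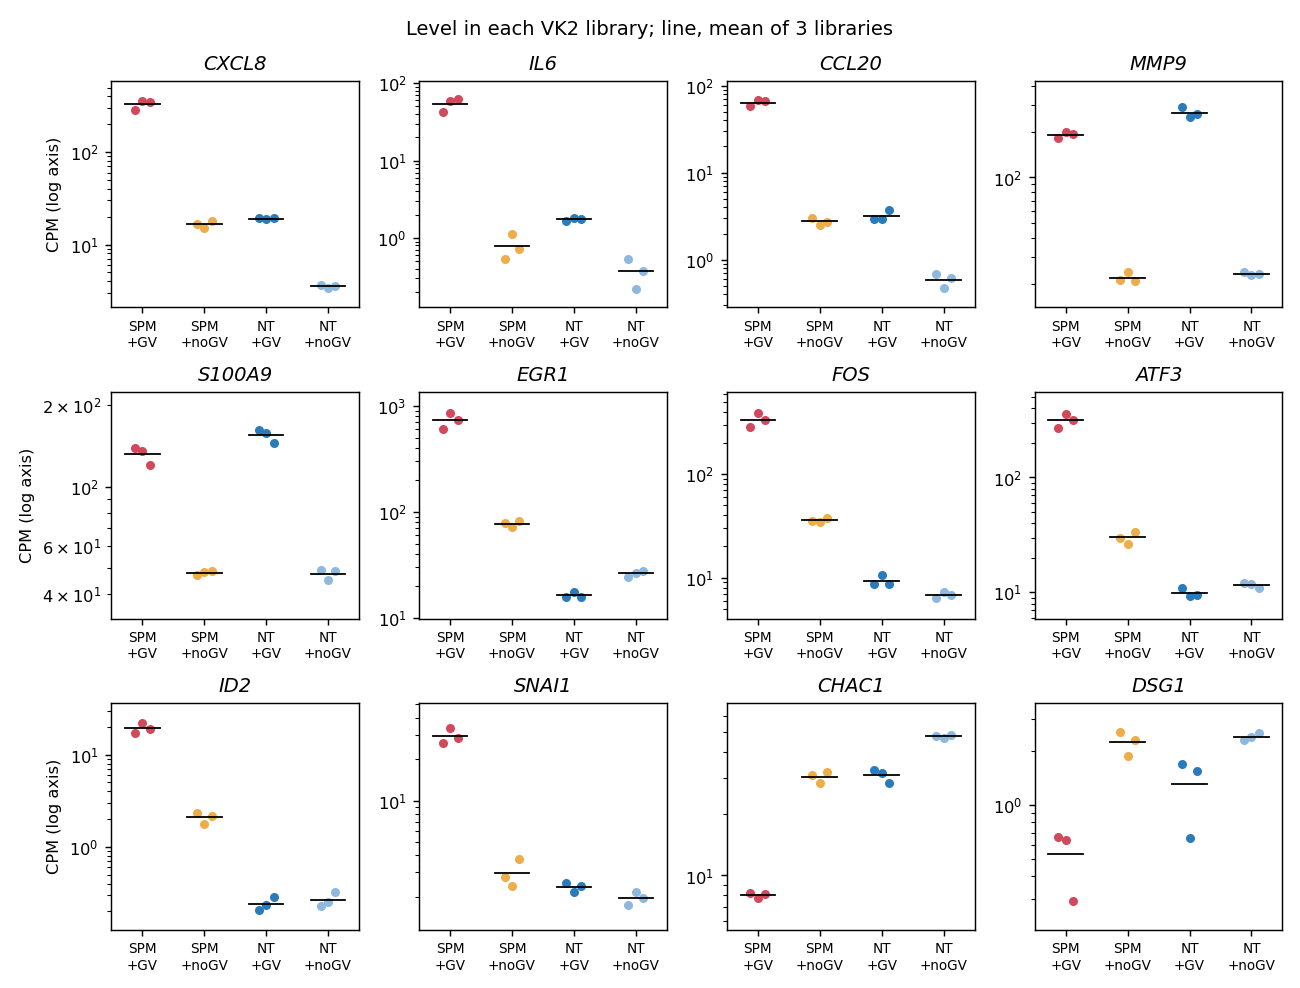
CPM on a log axis in each VK2 library (points) with the mean of 3 libraries (line), for SPM+GV, SPM+noGV, NT+GV and NT+noGV from left to right. CXCL8, IL6 and CCL20 rise in both pairs, MMP9 and S100A9 are higher with the bacterium in both pairs, and EGR1, FOS, ATF3, ID2 and SNAI1 are highest in SPM+GV, while CHAC1 and DSG1 are lowest there.

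The brakes on MAP kinase signaling rose with the immediate early genes, as 14 of 18 genes of phosphatases, Sprouty proteins and related feedback inhibitors did and none fell (median 0.52). DUSP1 had 296, 374 and 324 CPM in SPM+GV and 49.1, 47.5 and 49.2 CPM in SPM+noGV (log2FC 2.77, SE 0.06, adjusted p = 5.9e-21), and DUSP16 and DUSP4 rose by 1.12 and 0.97. Among the 7 EGFR ligands 5 rose and none fell, led by EPGN (1.80) and HBEGF (1.27). AREG, the most abundant of the 4 named here, rose by 0.61 and TGFA by 0.50.

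Developmental regulators rose in the same comparison. Of 11 tested genes of the ID and BMP list 9 rose and none fell (median 1.19), and of 13 genes of the EMT list, which holds epithelial regulators (GRHL2, OVOL1 and ESRP1), VIM, CDH2 and NEDD9 besides the EMT factors, 10 rose and 2 fell (median 0.80). ID2, an inhibitor of basic helix-loop-helix factors, had 17.3, 21.9 and 18.8 CPM in SPM+GV and 2.31, 1.79 and 2.17 CPM in SPM+noGV (log2FC 3.20, SE 0.14, adjusted p = 8.1e-19). SNAI1, a repressor of CDH1, had 26, 33.7 and 28.5 CPM in SPM+GV and 2.78, 2.37 and 3.77 CPM in SPM+noGV (log2FC 3.29, SE 0.11, adjusted p = 9.9e-22). The groups were apart for both. NEDD9, a scaffold of focal adhesions, rose by 2.40, ZEB1 by 2.58, BMP2 by 2.41 and ID3 by 2.24. OVOL1, an epithelial factor that holds EMT in check, rose by 2.00, and is known for the opposite role to SNAI1 and ZEB1. PCDH10, a protocadherin, had 15.9, 25.1 and 23.2 CPM in SPM+GV and 1.59, 1.21 and 1.45 CPM in SPM+noGV (log2FC 3.90, SE 0.17, adjusted p = 6.2e-19). In the Notch list 9 of 15 tested genes rose and 4 fell, among them the target HES1 (2.37), the feedback inhibitor NRARP (1.65) and the ligands DLL4 (2.92) and DLL1 (1.91), all of which rose.

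TXNIP, an inhibitor of thioredoxin and of glucose uptake, had 188, 279 and 224 CPM in SPM+GV and 44.1, 38.9 and 42.2 CPM in SPM+noGV (log2FC 2.46, SE 0.13, adjusted p = 2.8e-11). Its relatives ARRDC4 (2.12) and ARRDC3 (1.44) rose and ARRDC1 fell (-0.61). HMOX1, the heme-degrading enzyme, had 151, 184 and 169 CPM in SPM+GV and 28.4, 27.3 and 25.6 CPM in SPM+noGV (log2FC 2.63, SE 0.07, adjusted p = 3.4e-21). The NRF2 list as a whole was split, with 13 of 25 genes that rose and 9 that fell: AKR1C1 rose by 1.44 and glutathione reductase (GSR) fell (-0.68). Heat shock chaperones rose in 10 of 17 cases and fell in 4. DNAJB1, an HSP70 co-chaperone, had 569.7, 688 and 635 CPM in SPM+GV and 298, 300.1 and 296 CPM in SPM+noGV (log2FC 1.08, SE 0.04, adjusted p = 1.9e-19), and the near-identical HSPA1A and HSPA1B, whose reads cannot be fully separated, rose by 2.37 and 2.05. Genes of the p53 and growth-arrest list rose in 9 of 20 cases and fell in 5, among them GADD45B (2.98), PLK2 (2.04) and CDKN1A (0.71), which rose. Of 14 genes of the BCL2 family 5 rose and 4 fell: the pro-apoptotic BMF (2.22) and BCL2L11 (1.49) and the anti-apoptotic MCL1 (0.37) rose.

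Replication-dependent histone genes rose in 34 of 38 tested cases and none fell (median 2.25). H2BC5 had 40.7, 45.99 and 46.4 CPM in SPM+GV and 9.58, 8.98 and 8.84 CPM in SPM+noGV (log2FC 2.28, SE 0.07, adjusted p = 4.7e-23). H4C8 had 34.4, 37.6 and 37.7 CPM in SPM+GV and 4.74, 4.38 and 4.86 CPM in SPM+noGV (log2FC 2.97, SE 0.11, adjusted p = 5.4e-21). All SPM+GV libraries stood above all SPM+noGV libraries for both, but these genes are near copies of each other and the share of reads given to each is uncertain. Total RNA reads histone transcripts whether or not they carry a poly(A) tail. Genes of DNA replication and mitosis did not follow them: 4 of 34 rose and 20 fell (median -0.20), and TOP2A had 262, 248 and 249 CPM in SPM+GV and 386, 387 and 354 CPM in SPM+noGV (log2FC -0.57, SE 0.05, adjusted p = 3.7e-12). Their starting level had been shifted by spermine: in SPM+noGV against NT+noGV, which shares the SPM+noGV libraries, 28 of the 34 rose and 0 fell (median 0.30). In that comparison 17.4% of all tested genes rose and 15.6% fell. In NT+GV against NT+noGV 4 of the 34 rose and 2 fell (median -0.01).

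Most genes of the amino acid response, of sterol synthesis, of the ribosome and of the respiratory chain fell. Of 26 genes of the ATF4 and amino acid response 17 fell, 5 of them called at 2-fold or more, and 6 rose (median -0.57). Spermine alone had already lowered this list: in SPM+noGV against NT+noGV 24 of the 26 fell, 7 of them called, and 1 rose (median -0.53). Over all tested genes 15.6% fell there, 1.11% were called lower and 17.4% rose. Besides CHAC1, the cationic amino acid carrier SLC7A1 had 125, 124 and 113 CPM in SPM+GV and 192, 193 and 191 CPM in SPM+noGV (log2FC -0.67, SE 0.04, adjusted p = 5.3e-15), and the serine and asparagine enzymes PSAT1 (-1.21) and ASNS (-1.13), chosen after their values were seen, fell too. PPP1R15A, the stress-induced phosphatase subunit, went the other way, with 596, 751 and 709 CPM in SPM+GV and 192, 183 and 199 CPM in SPM+noGV (log2FC 1.84, SE 0.08, adjusted p = 2.7e-13). Sterol genes fell in 18 of 24 cases and rose in 3 (median -0.30). MVD, the mevalonate decarboxylase, had 100.4, 87.2 and 89.4 CPM in SPM+GV and 178, 187 and 183 CPM in SPM+noGV (log2FC -0.98, SE 0.04, adjusted p = 1.1e-18), LSS fell (-0.81) and INSIG1, which holds the sterol sensor in the endoplasmic reticulum, rose (0.76). Cytosolic ribosomal protein genes fell in 26 of 31 cases and nuclear respiratory chain genes in 23 of 26, with none that rose in either list and medians of -0.23 and -0.20. RPS6 (-0.32) and ATP5F1A (-0.39) are examples. The mitochondrially encoded genes MT-CO1 (-0.34) and MT-ATP6 (-0.45) fell with them (9 of 13 fell and 2 rose). Genes of the unfolded protein response fell in 10 of 19 cases and rose in 2, among them PDIA6 (-0.34) and EDEM1 (-0.55), which fell.

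Epithelial structure genes fell more often than they rose. Of 28 tested squamous differentiation genes 13 fell and 4 rose (median -0.34). The cornified-envelope plakin PPL had 100.3, 95.8 and 92.1 CPM in SPM+GV and 188, 191 and 192 CPM in SPM+noGV (log2FC -0.98, SE 0.04, adjusted p = 2.4e-19), and the peptidase KLK5 fell too (-0.86). TGM1, the envelope transglutaminase, rose instead, with 68.8, 65.3 and 65.8 CPM in SPM+GV and 29.4, 30.7 and 31.1 CPM in SPM+noGV (log2FC 1.13, SE 0.06, adjusted p = 1.5e-17), as did LCE3D (1.75). KRT13, the keratin of the stratified vaginal lining, was rare, with 1.69, 1.84 and 2.15 CPM in SPM+GV and 4.46, 4.97 and 3.92 CPM in SPM+noGV (log2FC -1.24, SE 0.20, adjusted p = 4.5e-06). Keratins were divided, with 9 of 20 that rose and 8 that fell: the wound keratin KRT17 had 2828, 3167 and 3051 CPM in SPM+GV and 1706, 1784 and 1793 CPM in SPM+noGV (log2FC 0.78, SE 0.05, adjusted p = 1.1e-14), and the basal KRT5 fell (-0.41). Tight junction and desmosome genes fell in 13 of 26 cases and rose in 7. E-cadherin (CDH1) had 355, 346 and 330.2 CPM in SPM+GV and 504, 499.7 and 506 CPM in SPM+noGV (log2FC -0.55, SE 0.03, adjusted p = 8.1e-16), and the desmogleins DSG2 and DSG3 fell (-0.45 and -0.56). Integrins, laminins and matrix genes fell in 12 of 23 cases and rose in 6: ITGB1 had 979.5, 920.0 and 942 CPM in SPM+GV and 1329, 1325 and 1313 CPM in SPM+noGV (log2FC -0.48, SE 0.03, adjusted p = 1.6e-14), and LAMB3 rose (0.59). SERPINB5 (maspin) fell (-0.70). The epithelial marker sum given above fell with these genes, and its part in them was not tested.

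Polyamine genes were among those that moved. Of 22 tested genes 10 rose and 6 fell (median 0.17). SAT1, the acetyltransferase that starts spermine breakdown, had 700.2, 771 and 783 CPM in SPM+GV and 348, 338 and 334 CPM in SPM+noGV (log2FC 1.14, SE 0.04, adjusted p = 1.2e-20). AMD1, which makes the aminopropyl donor for spermine synthesis, had 115, 114 and 128 CPM in SPM+GV and 79.3, 75.6 and 76.1 CPM in SPM+noGV (log2FC 0.63, SE 0.05, adjusted p = 2.1e-11). Both had groups that did not overlap. PAOX, which oxidizes acetylated polyamines, had 2.35, 1.398 and 1.51 CPM in SPM+GV and 0.873, 1.24 and 0.362 CPM in SPM+noGV (log2FC 1.11, SE 0.35, adjusted p = 0.0079). The call on PAOX was lost without SPM+GV replicate 1 (adjusted p = 0.072) and without SPM+noGV replicate 3 (0.067). Interferon-stimulated genes split, with 17 of 29 tested that rose and 8 that fell: IRF1 (1.98), IRF7 (1.52) and IFI27 (2.75) rose while IFIT2 had 27.9, 22.4 and 21.99 CPM in SPM+GV and 74.2, 66.3 and 73.4 CPM in SPM+noGV. In the hypoxia and glycolysis list 17 of 27 rose and 2 fell, with CA9 (1.29), EGLN3 (2.68) and PFKFB3 (1.12) among those that rose.

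Other lists moved little or in both directions. KLF genes rose in 7 of 11 cases and fell in 3. Genes of RNA-binding regulators of cytokine transcripts split 4 and 4, with ZFP36, which destabilizes cytokine messages, higher (1.42) and its relative ZFP36L2 lower (-0.40). YAP and SRF targets split 10 and 10 of 22 although CCN1, CCN2, ANKRD1 and AMOTL2 (1.08) are among those that rose. SUMO conjugation genes rose in 6 and fell in 9 of 20. In the list of metallothioneins and zinc export 4 of 6 tested genes rose and none fell: 3 of 5 metallothioneins, which are near copies of each other (MT1E, MT2A and MT1X, 0.65 for the last), and the zinc exporter SLC30A1 (0.30). Enzymes of histone acetylation, deacetylation and demethylation rose in 12 and fell in 7 of 26. Lysosomal genes rose in 12 and fell in 8 of 28, with the autophagy receptor SQSTM1 (0.84) and the sialidase NEU1 (0.77) higher. Only 3 of 9 mucins passed the filter: MUC1 (0.89) and MUC13 (2.27) rose, and MUC16 had -0.59 (adjusted p = 0.076), which passed as lower without SPM+GV replicate 1 (-1.05, adjusted p = 0.0079) or SPM+noGV replicate 3 (-0.73, adjusted p = 0.048).

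**Figure D3:**
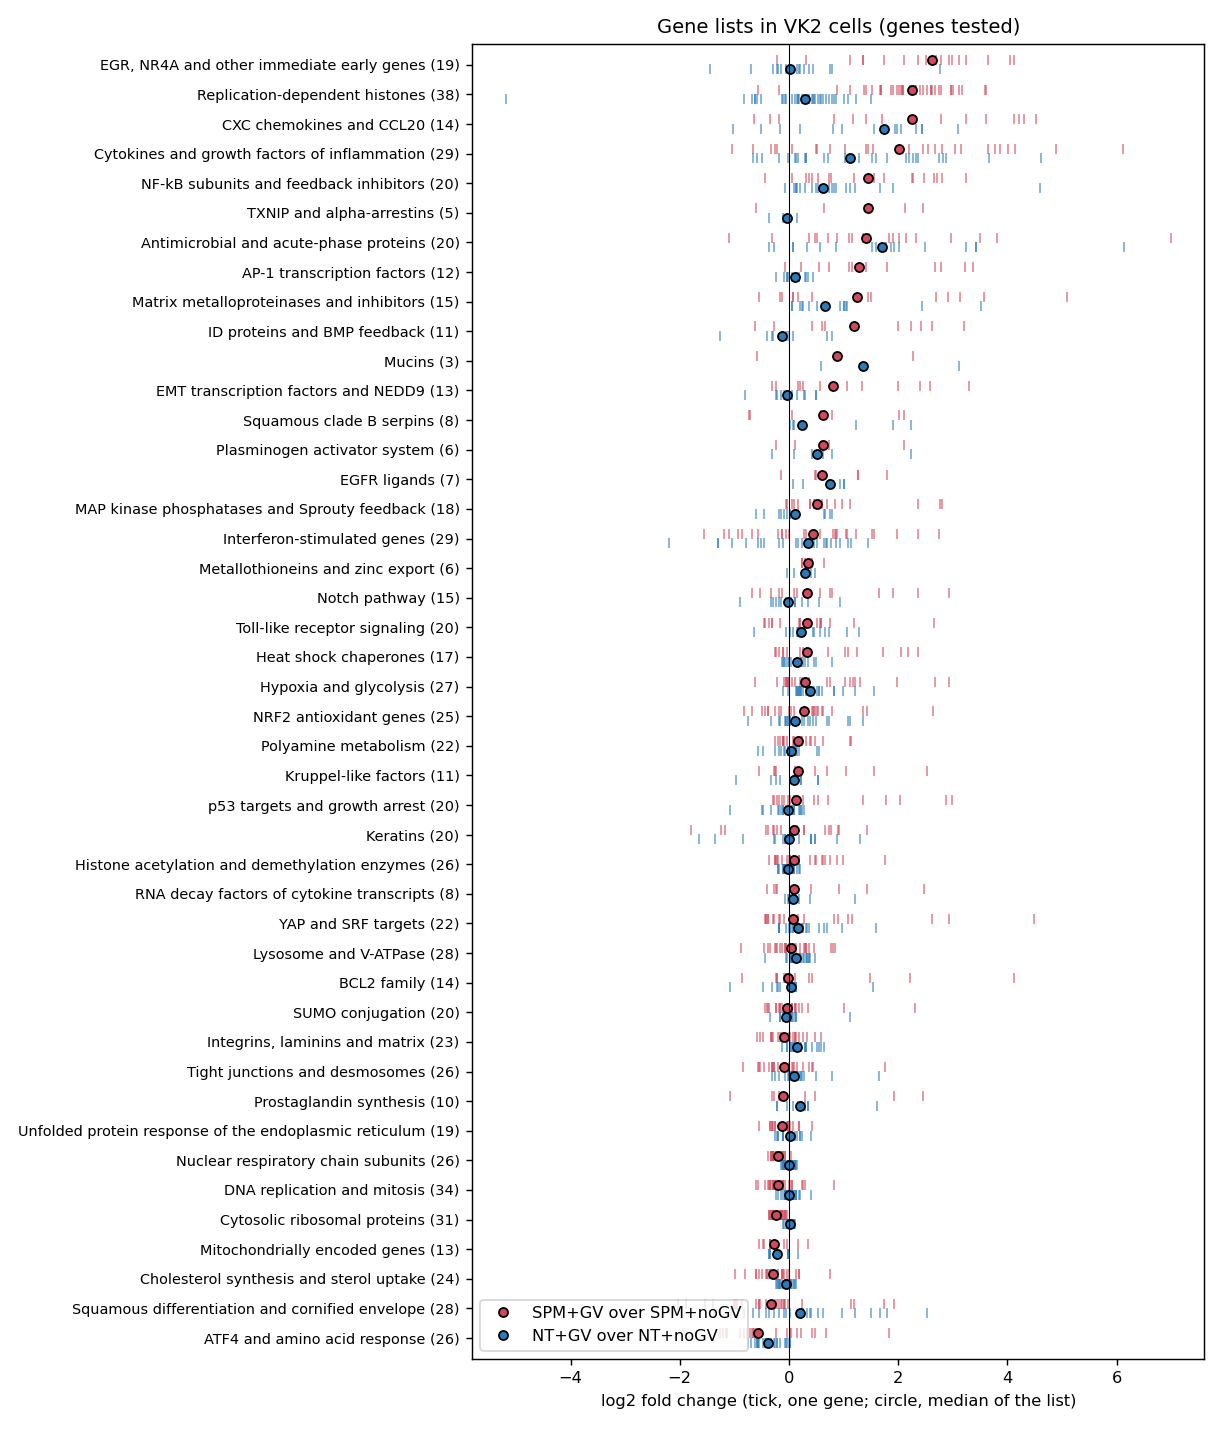
Log2 fold changes of the tested genes of each list in VK2 cells, with a tick for each gene and a circle for the median, for SPM+GV over SPM+noGV (red) and NT+GV over NT+noGV (blue). The immediate early, histone and ID lists have red medians above 1 and blue medians under 0.4, while antimicrobial genes have a blue median of 1.70 and a red one of 1.41. PGLYRP2, at 0 in SPM+noGV, has the rightmost red tick of that list, set by the fit.

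Whether spermine changed the response was tested as the difference between the 2 responses, SPM minus NT, in which no library is shared. The difference was called higher for 938 genes (5.08%) and lower for 133 (0.72%), and at an adjusted p alone it was higher for 17% and lower for 21.9% of genes. Of the 1692 genes called higher with spermine, 221 were also called higher without it, which is 13.1% of these and 68.6% of the 322 genes called higher in NT cells. For 885 of the 1692 (52.3%) the difference passed as a larger rise with spermine, for 9 as a smaller one, and for 798 it did not pass. Those genes were picked by their SPM response, whose libraries also enter the difference, so the selection itself favors larger rises with spermine. Of the 322 genes called higher in NT cells, a selection that leans the other way, it was larger with spermine for 58 and smaller for 51. For 213 of the 322 it did not pass. Across the 18474 genes the 2 sets of log2FC had a Pearson r of 0.267, and across the 14002 with at least 1 CPM of 0.464. These genes share libraries and are not independent replicates.

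Spermine had shifted the starting level of some of these genes. Of the 1692 genes called higher in SPM+GV, 163 (9.63%) were also called higher in SPM+noGV than in NT+noGV, a comparison that called 1.15% of tested genes higher and shares the SPM+noGV libraries. Another 48 (2.84%) were called lower there, against 1.11% of tested genes. Its log2FC was 2.95 for ID2, 2.40 for FOS, 2.23 for PCDH10, 2.16 for TXNIP and 1.60 for HMOX1. MMP9 had -0.09 there (adjusted p = 0.5) and PTX3 0.50 (adjusted p = 0.061).

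Immediate early genes differed between the responses. In NT cells, where 13.9% of all genes tested rose and 12.5% fell, 4 of the 19 EGR and NR4A genes rose and 4 fell (median 0.02), and the difference was higher with spermine for 16 and lower for none. For the AP-1 list it was higher for 10 of 12. FOS had 8.64, 10.6 and 8.61 CPM in NT+GV and 6.403, 7.27 and 6.77 CPM in NT+noGV, and the difference was 2.80 ± 0.18 (SE, adjusted p = 3.6e-10, 95% interval 2.42 to 3.17). EGR1 had 15.7, 17.5 and 15.9 CPM in NT+GV and 24.4, 26.6 and 27.8 CPM in NT+noGV, a fall (-0.69) where the spermine-treated cells had a rise (difference 3.93 ± 0.16, adjusted p = 2.8e-12). ID2 was rare in NT cells, with 0.207, 0.233 and 0.286 CPM in NT+GV and 0.228, 0.255 and 0.321 CPM in NT+noGV (difference 3.33 ± 0.39, adjusted p = 4.1e-08). SNAI1 (3.01, adjusted p = 1.4e-13), PCDH10 (3.49), TXNIP (2.83), PTX3 (4.02) and HES1 (2.38) had differences of the same sign. Among histones 26 of 38 differences were higher and none lower.

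Of 14 tested chemokine genes 9 rose and none fell in NT cells, and the difference was higher with spermine for 6 and lower for 1. CXCL8 had 19.2, 18.8 and 19.2 CPM in NT+GV and 3.61, 3.42 and 3.56 CPM in NT+noGV, a log2 fold change of 2.43, and the difference was 1.87 ± 0.22 (adjusted p = 2.1e-06). The CXCL8 level of NT+GV libraries was close to that of SPM+noGV libraries given above, and all were well under those of SPM+GV. IL6 had 1.66, 1.82 and 1.77 CPM in NT+GV and 0.541, 0.218 and 0.379 CPM in NT+noGV (difference 3.97 ± 0.55, adjusted p = 6.2e-06). CCL20 (2.09), CXCL2 (2.07), CSF2 (1.59) and IL1A (1.3) also had larger rises with spermine.

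Some defence genes had larger rises without spermine. MMP9 had 290.5, 249 and 261 CPM in NT+GV and 23.7, 22.98 and 23.1 CPM in NT+noGV, a larger rise than in spermine-treated cells (difference -0.39 ± 0.11, adjusted p = 0.01). S100A9 had 161, 157 and 145 CPM in NT+GV and 49.2, 44.9 and 48.5 CPM in NT+noGV (difference -0.24 ± 0.08, adjusted p = 0.015). C3 (-0.48), SAA1 (-0.46) and TGM1 (-0.66) differed the same way, each with an adjusted p of at most 0.017. For IL32 the difference was 0.27 with a 95% interval of -0.36 to 0.91, for SERPINB2 -0.13 (-0.32 to 0.05) and for KRT13 -0.41 (-0.97 to 0.16), and none of these 3 passed. In the antimicrobial list the difference was higher for 3 genes and lower for 6 of 20.

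Adhesion genes mostly had negative differences. In NT cells 10 of 26 tight junction and desmosome genes rose and 2 fell, and the difference was lower with spermine for 13 and higher for 1. Among integrins, laminins and matrix genes 12 of 23 rose and 1 fell in NT cells, and the difference was lower for 15. CDH1 had 518, 506 and 504 CPM in NT+GV and 482, 507 and 502 CPM in NT+noGV (difference -0.58 ± 0.04, adjusted p = 4.3e-12). ITGA2 (-0.84), DSG3 (-0.65) and PPL (-0.70) had negative differences too. Ribosomal protein genes gave 26 of 31 negative differences that passed and none positive. ATF4 response genes fell in 18 of 26 cases in NT cells too, and CHAC1 fell further with spermine (difference -1.29 ± 0.17, adjusted p = 6.4e-06).

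The largest differences among called genes of at least 2 CPM are given next. ICAM4, an adhesion molecule best known from red cells, had 6.61, 8.39 and 7.75 CPM in SPM+GV and 0.468, 0.365 and 0.241 CPM in SPM+noGV, against 0, 0 and 0.0572 CPM in NT+GV and 0.0285, 0.0727 and 0.0584 CPM in NT+noGV (difference 5.42 ± 1.07, adjusted p = 0.00013). Its levels in NT cells were near 0, so the size of that difference rests on few reads there and is uncertain (95% interval 3.15 to 7.70). The pseudogene IMPDH1P10 followed with 5.24, and the unnamed ENSG00000233030.2, an lncRNA, and ENSG00000279602.2 had differences of 5.20 and 4.51. TNFRSF6B, a decoy receptor for FAS ligand, had 46, 48 and 31 counts in SPM+GV and 0 in each SPM+noGV library. It was present in NT cells with and without the bacterium, with 157, 156 and 181 counts in NT+GV and 105, 45 and 88 in NT+noGV. TNFRSF6B shares sequence with the read-through gene RTEL1-TNFRSF6B, so the split of reads is uncertain. That gene had 349, 275 and 195 counts in SPM+GV and 728, 646 and 685 in SPM+noGV. The fitted difference of TNFRSF6B was above that of ICAM4 but depends on the SPM+noGV group at 0, so no size is given. On the negative side SYT14 (-2.04 ± 0.23, adjusted p = 3e-08) and INPP5D (-1.79 ± 0.15, adjusted p = 4.9e-11) fell with spermine, while in NT cells SYT14 had 0.37 and INPP5D -0.53. SPOCD1 (-1.31) and the sulfotransferase SULT2B1 (-1.31) also had negative differences, and that of the pseudogene TMEM183BP rested on libraries that overlapped between groups.

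Some genes were called in opposite directions. EGR3, a factor of the EGR family, had 10.9, 13.3 and 13.4 CPM in SPM+GV and 3.15, 2.92 and 2.595 CPM in SPM+noGV, but 0.725, 0.84 and 0.658 CPM in NT+GV and 1.68, 1.96 and 2.36 CPM in NT+noGV (log2 fold changes 2.11 and -1.45). TAMALIN, a scaffold of membrane traffic, had 3.82, 4.24 and 4.53 CPM in SPM+GV and 0.593, 0.329 and 0.603 CPM in SPM+noGV, and 0.242, 0.327 and 0.172 CPM in NT+GV and 0.683, 0.327 and 0.554 CPM in NT+noGV (3.02 and -1.15). DACT1, a Wnt pathway antagonist (1.20 and -1.02), the retrotransposon-derived RTL5 (2.11 and -1.55) and the pseudogene IMPDH1P10 (3.82 and -1.42) completed those higher with spermine. The lncRNA DIRC3 (-1.57 and 1.61) and ACTL8 (-1.24 and 1.32) went the other way, and both stayed under 1 CPM in spermine-treated cells. The fall of ACTL8 with spermine (adjusted p = 0.038) no longer passed without SPM+GV replicate 1 (0.2) or 2 (0.08) or without SPM+noGV replicate 2 (0.066) or 3 (0.13).

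Spermine and spermidine were given at the same dose and time, and their responses to the bacterium were compared directly for each of the 18474 genes, with p-values adjusted over all of them. The SPM response exceeded the SPD response for 793 genes called (4.29%) and fell short for 100 (0.541%), while at an adjusted p alone it was higher for 15.4% and lower for 18.5% of genes. SPD+GV against SPD+noGV itself gave 521 genes called higher (2.82%) and 103 lower (0.558%). FOS had 7.46, 7.42 and 8.41 CPM in SPD+GV and 6.505, 6.37 and 6.96 CPM in SPD+noGV, and the difference, SPM minus SPD, was 3.00 (95% interval 2.63 to 3.38, adjusted p = 1.7e-10). ID2 (3.01, 2.37 to 3.66), SNAI1 (2.71, 2.31 to 3.10), JUN (2.67, 2.44 to 2.91) and TXNIP (3.06, 2.56 to 3.57) also had larger responses with spermine. CXCL8 had 22.5, 23.6 and 25.1 CPM in SPD+GV and 4.11, 3.17 and 3.58 CPM in SPD+noGV, with a difference of 1.61 (1.17 to 2.06, adjusted p = 1.1e-05). IL6 (3.64, 2.69 to 4.59) and CCL20 (2.13, 1.66 to 2.61) exceeded the SPD response as well. HMOX1 exceeded it by less, 0.59 (0.38 to 0.80, adjusted p = 3.5e-05).

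Other genes gave no difference between the compounds that passed. MMP9 had 203, 174 and 189.6 CPM in SPD+GV and 23.6, 22.6 and 21.4 CPM in SPD+noGV, and the difference was 0.06 (-0.18 to 0.31, adjusted p = 0.73). For the next 4 genes, all with an adjusted p of at least 0.64, the differences were 0.02 (-0.17 to 0.20) for SERPINB2, 0.11 (-0.21 to 0.43) for SAA1, -0.11 (-0.69 to 0.46) for KRT13 and -0.23 (-1.13 to 0.67) for IL36G. The intervals of KRT13 and IL36G are wider than those of MMP9 and SERPINB2. S100A9 rose less with spermine (-0.23, -0.40 to -0.07, adjusted p = 0.022). Putrescine (PUT) was given at another dose, 4 mM, so its response was not tested against that to spermine. PUT+GV against PUT+noGV gave 883 genes called higher (4.78%) and 109 lower (0.59%).

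The same comparison, SPM+GV against SPM+noGV, was made in ectocervical (Ecto) and endocervical (Endo) cells of the series, and the difference between lines was tested in 1 model of all 72 libraries and 21195 genes. Levels here are CPM scaled over the 72 libraries. The VK2 response was called higher than the Ecto response for 214 genes (1.01%) and lower for 922 (4.35%), and higher than the Endo response for 289 (1.36%) and lower for 197 (0.929%). At an adjusted p alone it was higher than the Ecto response for 12.5% of genes and lower for 14.3%, and higher than the Endo response for 5.95% and lower for 10.9%, so that against Endo the balance turned with the fold threshold. CXCL8 rose in all 3 lines, with 291, 364 and 351 CPM in SPM+GV and 17.9, 16.3 and 19.1 CPM in SPM+noGV of VK2, 253, 372 and 288 CPM in SPM+GV and 12.4, 10.6 and 13.3 CPM in SPM+noGV of Ecto, and 235, 266 and 273 CPM in SPM+GV and 10.6, 12.01 and 9.91 CPM in SPM+noGV of Endo. The log2FC of VK2 minus that of Ecto was -0.43 (adjusted p = 0.024) and VK2 minus Endo was -0.34 (adjusted p = 0.12). For SAT1 these differences were -0.12 and -0.02 (adjusted p = 0.24 and 0.94).

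Against Ecto cells VK2 cells had larger rises of IL32 and IL6 on the log2 scale, among other genes. IL32 had 17.8, 21.5 and 20.9 CPM in SPM+GV and 0.562, 0.819 and 0.741 CPM in SPM+noGV of VK2, against 164, 189.7 and 179 CPM in SPM+GV and 85.8, 83.3 and 80.7 CPM in SPM+noGV of Ecto, where it was abundant before the bacterium (difference 3.73 ± 0.17, adjusted p = 3e-27). IL6 differed by 2.75 ± 0.25 (adjusted p = 1.1e-12), and it too was more abundant in Ecto with and without the bacterium. Its mean was 55.25 CPM in SPM+GV and 0.848 CPM in SPM+noGV of VK2, against 256 and 26.1 CPM in Ecto. TGM2, tissue transglutaminase, had 5.49, 4.95 and 4.54 CPM in SPM+GV and 1.39, 0.897 and 1.29 CPM in SPM+noGV of VK2, but 23.8, 21.7 and 21.3 CPM in SPM+GV and 30.6, 31.4 and 29.8 CPM in SPM+noGV of Ecto, and APLN, the ligand of the apelin receptor, also rose in VK2 and fell in Ecto (1.47 and -1.01). KRT13 was the reverse, a fall in VK2 and a rise in Ecto, where it had 4.56, 5.23 and 4.88 CPM in SPM+GV and 0.622, 0.409 and 0.619 CPM in SPM+noGV (difference -4.48 ± 0.29, adjusted p = 5.9e-19). FOS (-2.03), JUN (-1.09), ID2 (-1.93) and TXNIP (-1.45) rose in VK2 by less than in Ecto, and MMP9 by more (1.74). AJAP1, APBA2 and FZD10 were called lower, but they were at 0 in all Ecto SPM+noGV libraries and under 0.3 CPM in Ecto SPM+GV, so no size is given.

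Against Endo cells VK2 cells had larger rises of OLR1, a scavenger receptor for oxidized lipoprotein, with 41.8, 51.6 and 44.8 CPM in SPM+GV and 3.47, 3.35 and 3.19 CPM in SPM+noGV of VK2 and 6.48, 5.76 and 7.73 CPM in SPM+GV and 4.74, 5.06 and 4.38 CPM in SPM+noGV of Endo (difference 3.29 ± 0.16, adjusted p = 1.3e-25). ULBP1, a stress ligand of natural killer cells, also had a larger rise (difference 2.94), and its levels in the 2 Endo groups overlapped. C3 had 52.95, 53.9 and 52.2 CPM in SPM+GV and 0.876, 1.15 and 1.19 CPM in SPM+noGV of Endo, a larger rise than in VK2 (difference -3.70 ± 0.15, adjusted p = 6.9e-29). IL36G (-3.23), S100A9 (-1.85) and CCL20 (-1.11) rose less in VK2 as well. GAD1, H19 and PTPN20 were called between lines on levels near 0 in 1 of the lines, and no size is given for them.

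**Figure D4:**
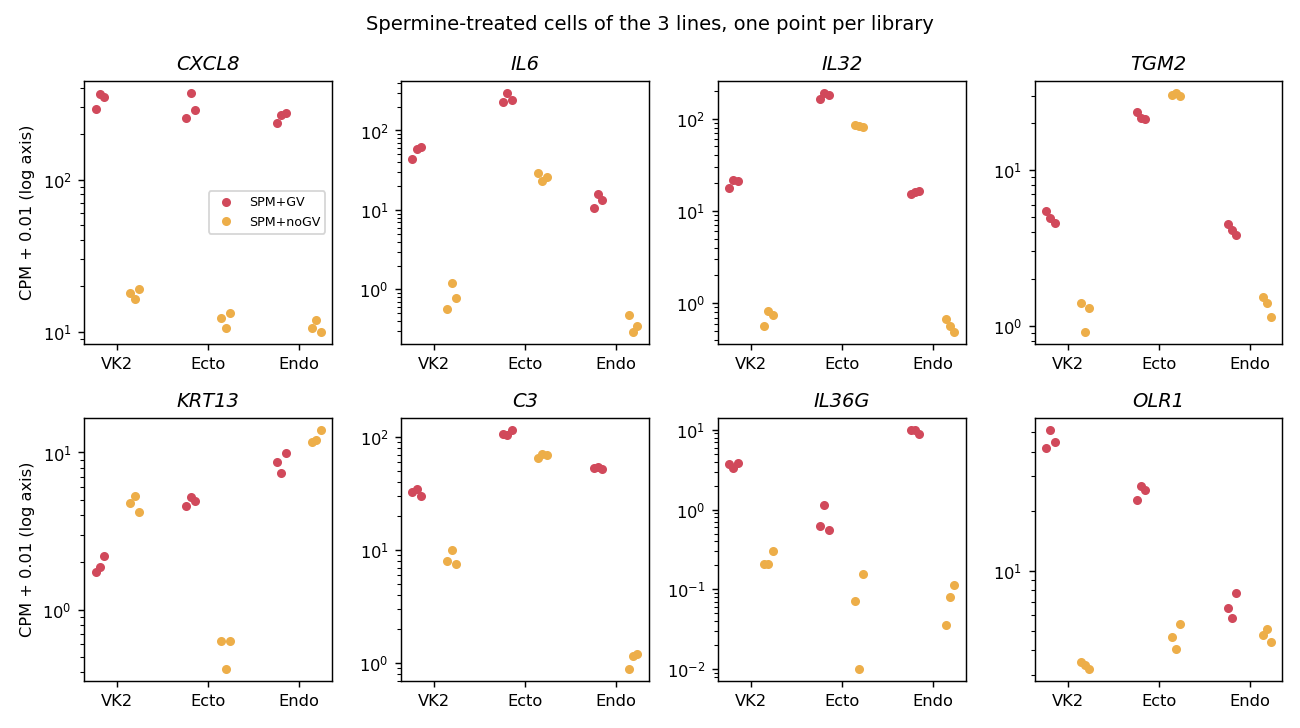
CPM + 0.01 on a log axis in each SPM+GV and SPM+noGV library of VK2, Ecto and Endo cells, 1 point per library. CXCL8 and IL6 are higher in SPM+GV in all 3 lines, KRT13 is lower in SPM+GV in VK2 and Endo and higher in Ecto, and the highest OLR1 value in Endo is 7.73 CPM.

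Protein-coding genes called higher spanned less of the genome than those called lower. The 1010 called higher had a median span of 15.9 kb and a median of 6 exons in the transcript with the most exons. The medians were 50 kb and 9 exons for the 142 called lower and 33 kb and 9 exons for all tested. Single-exon genes were 7.92% of those called higher, or 5.29% without histone genes, and 1.41% of those called lower, against 1.99% of all tested. These are descriptions of annotation release 44 of the files, and short genes among those called higher include CXCL8, FOS and EGR1.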

How the data were processed

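Per the labels and the study's methods, total RNA was depleted of ribosomal RNA, made into stranded libraries with the CORALL kit and sequenced paired-end on a NovaSeq instrument. Whether its molecular identifiers were used is not stated. The authors quantified transcripts with Salmon against GENCODE (GRCh38.p13) and deposited 1 table of estimated counts per gene, held as whole numbers, for 62266 genes and 72 libraries. The deposited estimated counts were used as they stand.

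Groups came from the labels. edgeR 4.0.16 (R 4.3.3) fitted 1 quasi-likelihood model to the 24 VK2 libraries in 8 groups of 3, with TMM factors, and 18474 genes passed filterByExpr. The common biological coefficient of variation was 0.0434. P-values were adjusted by Benjamini-Hochberg over all genes tested. "Rose" and "fell" mean an adjusted p under 0.05, and "called" also needs a log2 fold change of at least 1 in size. All p-values of the fits are two-sided. Differences between the SPM and NT or SPD responses were contrasts of that model, and differences between lines were contrasts of 1 model of 72 libraries. CPM are counts scaled to a TMM-adjusted library size of 1000000. Intervals of differences are 95% intervals from the standard error with 16 residual degrees of freedom. The self-test on simulated data of the main comparison covered 17841 genes. It recovered 76.3% of 97 genes changed 2-fold and 95.8% of 96 changed 4-fold, and 7 of 17648 unchanged genes passed the adjusted p. For the SPM by GV interaction on the same simulated data recovery was lower, 64.9% and 88.5%, and 9 of 17648 unchanged genes passed. A difference that did not pass is therefore not shown to be absent. In the main comparison of the data far more genes passed the adjusted p, 10383 of 18474 (56.2%). Recovery and false passes with that many changed genes were not tested. Totals of the 6 libraries ran between 20152143 and 34343971 counts, so that genes under 1 CPM rest on few reads. Near copies and overlapping genes share reads in ways a table per gene does not show.

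The members and gene lists were chosen with earlier results of these data known. Genes are named by rule: the 10 largest changes each way among called protein-coding genes of at least 2 CPM, up to 4 genes of smallest p per list, genes the study names for these cells, the extremes of each difference and genes called in opposite directions. Others are said to be chosen after their values were seen. Alternatives were RLE factors, DESeq2 1.42.0, no filter, other thresholds, fewer libraries, the replicate number as a block, leaving out each library, and counts thinned to the smallest library, the last added after seeing the data. Promoter sequences are from RefSeq, GRCh38.p14.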

Additional observations from a re-analysis of the deposited data

Results flagged for a closer look

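The response of VK2 cells to the bacterium differed with spermine: the difference between the SPM and NT responses was called for 1071 genes by edgeR's interaction contrast. It was called for 893 genes between SPM and SPD. Between lines, the SPM response in VK2 differed from that in Ecto for 1136 genes and from that in Endo for 486 genes. No explanation of these differences was tested.

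The following 7 genes were called in opposite directions with and without spermine, and each difference (SPM response minus NT response, log2) passed the interaction test. IMPDH1P10, a pseudogene, had the largest difference, 5.24. TAMALIN had 4.16, RTL5 had 3.66 and EGR3 had 3.57. DACT1, the Wnt antagonist, had 2.21. DIRC3 had -3.18 and ACTL8 had -2.56, both from transcripts that stayed under 1 CPM in spermine-treated cells.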

How the results depend on the processing

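No named gene that passed in the main fit turned its direction under the settings run. Turns of named genes that did not pass in the main fit were not counted. At adjusted p alone the balance of higher and lower genes turned in some comparisons. There 49.1% of genes were higher for SPM+GV against SPM+noGV (87.9% of those called), 43.7% for the interaction (87.6%), 45.5% for SPM minus SPD (88.8%), 35.3% for VK2 minus Endo (59.5%), 46.7% for VK2 minus Ecto (18.8%) and 52.7% for NT+GV against NT+noGV (78%). Of 220 named genes followed through 12 settings, 6 crossed the threshold somewhere (ACTL8, DIRC3, MUC16, PAOX, SPOCD1 and TMEM183BP), of which SPOCD1 and MUC16 came to pass. TMEM183BP lost its call without SPM+GV replicate 1 or 3 or SPM+noGV replicate 1 or 3 (adjusted p of 0.062 to 0.096), and SPOCD1 passed without SPM+noGV replicate 1 (0.046) or 2 (0.027). The number of genes called in SPM+GV against SPM+noGV (1926) was 1948 with RLE factors, 1953 with DESeq2 (1714 shared), 2494 without the filter, 1564 from the 6 libraries alone and 1568 after thinning. It was 764 at a log2 fold change of 2 and 10383 at adjusted p alone. These stricter and looser thresholds gave 93 and 4882 for NT+GV against NT+noGV, 417 and 7185 for the SPM by GV interaction, 321 and 6258 for SPM minus SPD, 449 and 5667 for VK2 minus Ecto, and 162 and 3571 for VK2 minus Endo. DESeq2 called 270 genes in NT+GV against NT+noGV in place of 413. The share of called genes that were higher was 31.1% without the filter for VK2 minus Ecto, against 18.8%, and 69.7% from the compared libraries alone for VK2 minus Endo, against 59.5%. The causes of these shifts were not tested. Leaving out each library in turn gave 1897 to 2071 genes called in SPM+GV against SPM+noGV, 364 to 400 in NT+GV against NT+noGV, 994 to 1117 for the interaction, 825 to 946 for SPM minus SPD, 950 to 1223 for VK2 minus Ecto and 403 to 466 for VK2 minus Endo. With the replicate number as a block 1919 genes were called (1692 higher, 227 lower). Same-numbered SPM+GV and SPM+noGV libraries did not deviate together (correlations of -0.0114, 0.0163 and -0.0181), so the numbers were not read as a pairing.

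Depth limits rare genes most: 55.3% of genes called higher averaged under 1 CPM, and ratios for genes at 0 in a group are lower bounds. With 3 libraries a group and 1 cell line, other vaginal cells were not measured. Copies such as histones, HSPA1A and HSPA1B, and the metallothioneins share reads.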
